A study of Mus musculus with 24 samples.

Results

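The genes described here are 52 genes of mitosis, the spindle and the kinetochore, named in a list of symbols and followed in bone marrow-derived macrophages of the mouse. Of the 52, 51 were measured, through 109 probe sets of which 107 passed a filter that asked for the array's median ratio or more on at least 3 arrays, out of 17737 genes and 43349 probe sets tested in all. Ccnb1, the cyclin B1 gene, had no probe set that carried its symbol alone and was not analysed here. The list was made from gene function and not from the values, but it was drawn up with earlier results of these data known.

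Marrow of 3 Pparg+/- LysCre mice and 3 Pparg fl/- LysCre mice of the C57Bl/6 strain, with ages not given, was cultured over 10 days with M-CSF at 20 ng/ml, which drives marrow cells to become macrophages. Each mouse gave 4 cultures: with no IL-4 or with IL-4 at 20 ng/ml, a Th2 cytokine that turns macrophages to their alternative state, and each of these with vehicle (DMSO:ethanol) or with 1 µM rosiglitazone (RSG), an agonist of the nuclear receptor PPARγ. This made 8 groups of 3 arrays, and the design asked what IL-4, RSG and the loss of PPARγ each changed. The paper describes IL-4 and RSG as given during the 10 days of differentiation with M-CSF. All mice carried LysCre, in which the lysozyme locus, active in myeloid cells, drives Cre, and all had at most 1 working Pparg allele from the start, since the controls were heterozygous. Cells that do not express lysozyme would keep the floxed allele.

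Mitosis is driven by cyclin-CDK1 and by the mitotic kinases, which build a bipolar spindle of microtubules and attach it to the chromosomes at kinetochores. The spindle checkpoint holds back the anaphase-promoting complex until every kinetochore is attached, after which that complex marks securin and the cyclins for destruction and the sister chromatids part. Most of the genes involved are transcribed in G2 and M phase and are nearly silent in resting cells, so that together they are widely used as a read-out of dividing cells. M-CSF is a mitogen for macrophage precursors.

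The deposited values are ratios, and in 105 of the 107 probe sets of these genes the median over the 24 arrays was within 0.005 of 1. A gene's ratio is the geometric mean over its probe sets. Ratios of different genes therefore cannot be compared as levels, and only differences between groups of the same gene are read. Of 11 macrophage markers, Csf1r, Adgre1 and Cd68 had ratios between 0.792 and 1.35 on all 24 arrays, and 6 others differed between cultures with and without IL-4 in at least 2 backgrounds, as given below with the other markers. Pparg itself, on 1 probe set whose position relative to the floxed exons is not given in the sources used here, cannot check the genotype. Its ratio was 0.362 to 0.579 in Pparg+/- and 0.578 to 1.12 in Pparg fl/- cells without IL-4, and 0.895 to 2.02 and 1.86 to 3.16 with it, so that it was higher and not lower in Pparg fl/- cells. That difference passed the test with IL-4 and RSG alone (log2 1.29 ± 0.25 SE, limma adjusted p of 0.027). Lyz2, the lysozyme gene in which LysCre sits, was between 16.6 and 21.6 on every array of mice 2 and 4 and between 0.296 and 1.15 on every array of mice 1, 3, 5 and 6. One array stood apart in the genes described here, that of mouse 6 without IL-4 and with RSG, and the results that rest on it are given with and without it.

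The promoters of 4 of these genes are shown for the short motifs they hold. In cell cycle genes a pair of elements is known, the CCAAT box and the cell cycle homology motif. The second is bound by complexes that hold mitotic genes silent outside G2 and M phase. The 4 are the first genes, by order of role, whose promoter held both motifs, so that their holding both was fixed by the choice. A link of the motifs to the changes given below was not tested. In each sequence, 300 bases from 250 before the start site to 50 from it on, 5′ to 3′ on the strand of the gene and taken from RefSeq on GRCm38.p6, capitals mark every CCAAT box (CCAAT or its reverse ATTGG) and every cell cycle homology motif (TTTGAA, its reverse TTCAAA, or TTCGAA).
Ccnb2, chr9:70421505-70421804, minus strand: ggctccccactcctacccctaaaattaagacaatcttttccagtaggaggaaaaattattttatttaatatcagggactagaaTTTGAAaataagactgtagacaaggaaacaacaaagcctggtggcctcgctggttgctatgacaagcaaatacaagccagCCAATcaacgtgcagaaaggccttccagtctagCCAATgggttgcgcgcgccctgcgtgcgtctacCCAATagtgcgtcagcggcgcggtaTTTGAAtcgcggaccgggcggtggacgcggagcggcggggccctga
Cdk1, chr10:69352863-69353162, minus strand: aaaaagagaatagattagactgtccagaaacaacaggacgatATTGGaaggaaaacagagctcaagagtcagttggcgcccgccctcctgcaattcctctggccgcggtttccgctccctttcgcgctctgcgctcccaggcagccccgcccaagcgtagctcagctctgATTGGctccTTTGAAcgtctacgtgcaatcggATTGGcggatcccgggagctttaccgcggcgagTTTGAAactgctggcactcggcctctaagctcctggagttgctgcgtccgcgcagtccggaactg
Cdc20, chr4:118437294-118437593, minus strand: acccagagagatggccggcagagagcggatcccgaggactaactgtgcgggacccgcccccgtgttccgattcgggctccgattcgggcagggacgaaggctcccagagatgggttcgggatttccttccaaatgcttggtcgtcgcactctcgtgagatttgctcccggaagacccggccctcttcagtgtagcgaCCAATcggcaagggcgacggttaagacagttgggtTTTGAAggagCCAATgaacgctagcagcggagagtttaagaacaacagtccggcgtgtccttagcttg
Ube2c, chr2:164769679-164769978, plus strand: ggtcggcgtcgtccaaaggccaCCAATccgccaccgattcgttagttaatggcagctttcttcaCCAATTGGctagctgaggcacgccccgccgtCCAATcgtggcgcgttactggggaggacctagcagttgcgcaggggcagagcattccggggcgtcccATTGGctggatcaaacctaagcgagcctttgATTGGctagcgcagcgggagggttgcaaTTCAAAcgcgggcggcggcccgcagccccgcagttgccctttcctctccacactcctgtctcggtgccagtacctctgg
In Ube2c a CCAAT box and its reverse overlap, and the cell cycle homology motif is read on the opposite strand.

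Promoters were found for 43 of the 51 genes, 47 in all. The cell cycle homology motif, searched on both strands, was in 35 of the 47, or 74.5%, and in 19.2% of the 32851 mouse promoters of the same length. A CCAAT box was in 36 of the 47, or 76.6%, against 37.4% of all promoters. Both were in 31, or 66%, against 7.52%. The promoters of Birc5, Nuf2, Melk, Mad2l1, Ncaph, Nusap1 and Pttg1 held neither set of letters in this window, and that of Kif15 held the cell cycle homology motif and no CCAAT box. A match is a description of the letters and not of binding.

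IL-4 lowered nearly all of the mitotic genes. Of the 51 genes, 49 were called lower with IL-4 in each of the 4 backgrounds, that is in Pparg+/- and Pparg fl/- cells with vehicle and in both with RSG, by limma with a threshold of 0.05 on the adjusted p and of 1.5-fold on the change. By the methods' t-test, which takes its spread from the 6 arrays compared, 46 and 41 genes were called with vehicle and 48 and 28 with RSG, in Pparg+/- and Pparg fl/- cells in turn. Among all genes the share called lower by limma was 6.84% and 8.01% with vehicle and 6.37% and 7.21% with RSG, and 4.27% were called lower in all 4. The share of all genes called by the t-test is not given here. The median log2 change of the 51 genes was -3.42 and -3.61 with vehicle and -3.34 and -3.51 with RSG, in Pparg+/- and Pparg fl/- cells in turn, where the medians of all genes lay between 0.0899 and 0.122. Over the mean of the 4 changes the median gene was 10.8-fold lower. These are bulk RNA values, in which fewer dividing cells and less of these RNAs in each cell cannot be told apart.

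The arrays separated as completely as 24 arrays can. In 49 of the 51 genes every one of the 12 arrays with IL-4 lay below every one of the 12 arrays without it, against 4.96% of all genes. Within backgrounds the 3 arrays with IL-4 lay below the 3 without it in 50 genes for each genotype with vehicle and in 49 for each genotype with RSG, against 14.1%, 13.4%, 14.4% and 13.6% of all genes in Pparg+/- and Pparg fl/- cells with vehicle and Pparg+/- and Pparg fl/- cells with RSG. The 2 genes that did not follow were Pttg1 and Kif15.

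**Figure D1:**
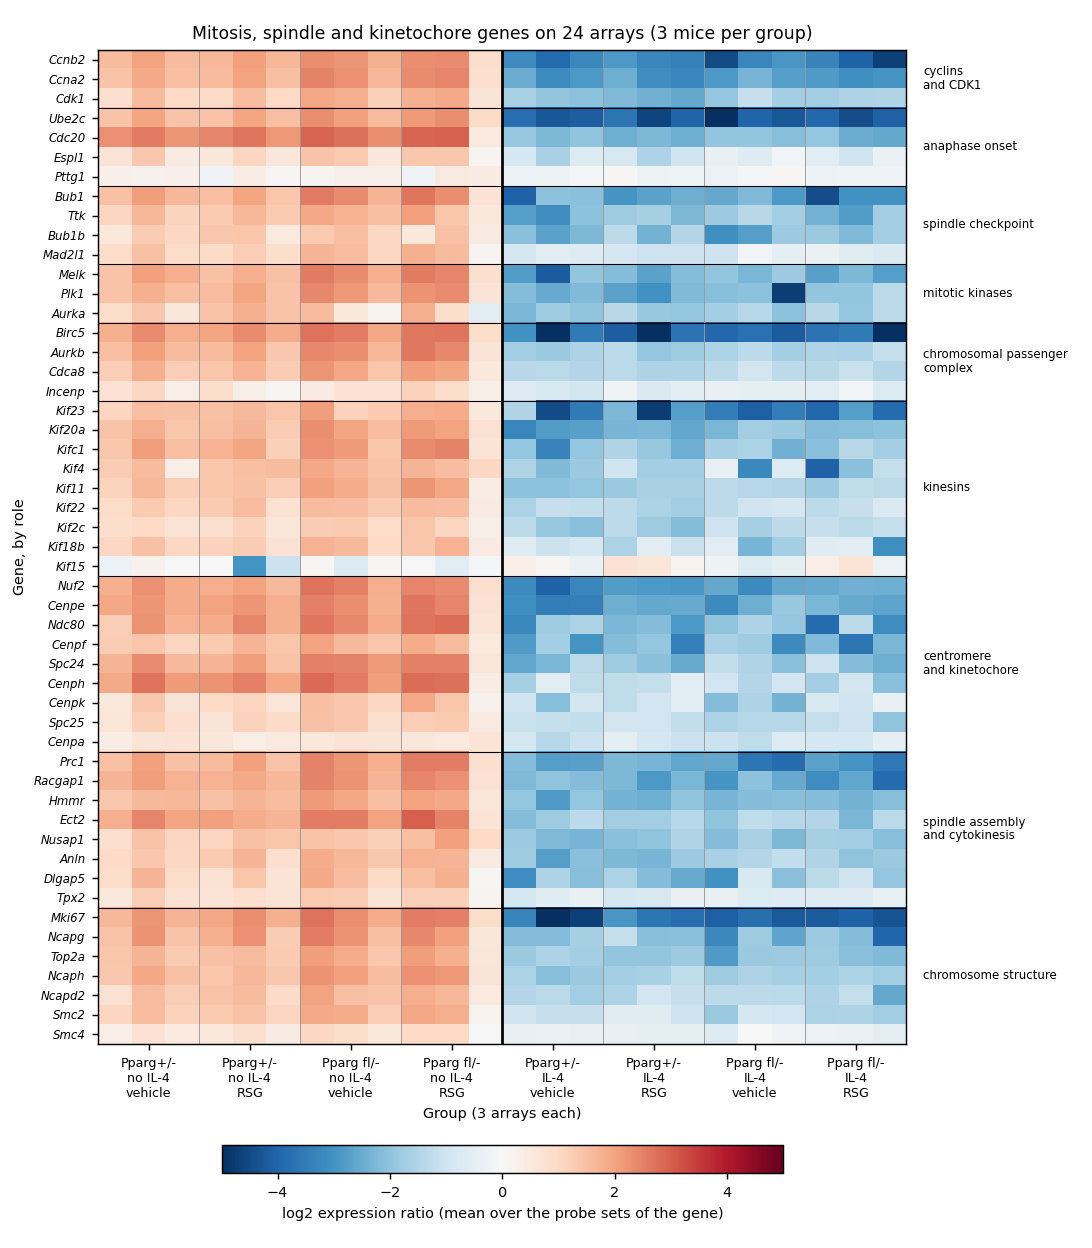
Heat map of the log2 expression ratio of the 51 genes (vertical axis, by role) on the 24 arrays (horizontal axis, 3 mice in each of 8 groups). Red is above and blue below a ratio of 1, and a thick line parts the 12 arrays without IL-4 from the 12 with it. In 49 of the 51 genes every IL-4 array was below every other array, and the palest column without IL-4 is mouse 6 with RSG.

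The cyclins and CDK1 start mitosis, and all 3 measured genes were called lower in every background. In each role the gene with the largest and the gene with the smallest change are given on every array, and log2 changes with IL-4 are given in the order Pparg+/- with vehicle, Pparg fl/- with vehicle, Pparg+/- with RSG and Pparg fl/- with RSG. Ccnb2, cyclin B2, changed most. Without IL-4 the Ccnb2 ratios of the 3 Pparg+/- mice were 2.97, 4 and 3.01 with vehicle and 3.15, 4.09 and 3.19 with RSG, and those of the 3 Pparg fl/- mice were 5.06, 4.61 and 3.41 with vehicle and 4.99, 5.12 and 1.86 with RSG. With IL-4 they were 0.113, 0.0672 and 0.108 with vehicle and 0.137, 0.104 and 0.0955 with RSG in Pparg+/- cells, and 0.0456, 0.105 and 0.133 with vehicle and 0.0994, 0.0606 and 0.0397 with RSG in Pparg fl/- cells. The highest array with IL-4, 0.137, was far below the lowest without it, 1.86. Its log2 changes were -5.14, -5.64, -4.96 and -5.87, each with an SE of 0.54, and the largest limma adjusted p was 2.1e-06. Cdk1, the kinase that the cyclins switch on, changed least of the 3. In cultures free of IL-4 the Cdk1 ratios of the 3 Pparg+/- mice were 1.77, 3.03 and 2.02 with vehicle and 1.96, 2.91 and 2 with RSG, and those of the 3 Pparg fl/- mice were 3.87, 3.57 and 2.28 with vehicle and 3.44, 3.71 and 1.55 with RSG. In the presence of IL-4 the ratios were 0.321, 0.253 and 0.244 with vehicle and 0.217, 0.187 and 0.171 with RSG in Pparg+/- cells, and 0.264, 0.447 and 0.308 with vehicle and 0.301, 0.347 and 0.353 with RSG in Pparg fl/- cells. The lowest control array, that of mouse 6 with RSG, was still above the highest array with IL-4, and Cdk1 was 8.14- to 11.8-fold lower. On the log2 scale its changes were -3.03, -3.25, -3.56 and -3.02, each with an SE of 0.32, and the largest limma adjusted p was 1.2e-06. Ccna2, cyclin A2, which acts from S phase to early mitosis, lay between them at 25.5-fold lower in the mean.

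Of the genes of anaphase onset, 3 of 4 were called lower in every background. Ube2c, the ubiquitin-conjugating enzyme that works with the anaphase-promoting complex, was among the 3 most changed of all 51 genes. Without IL-4 the Ube2c ratios of the 3 Pparg+/- mice were 2.66, 3.95 and 2.68 with vehicle and 2.66, 3.94 and 2.84 with RSG, and those of the 3 Pparg fl/- mice were 4.96, 4.13 and 2.99 with vehicle and 4.39, 5.06 and 1.92 with RSG. IL-4 brought values of 0.0709, 0.0526 and 0.0579 with vehicle and 0.0785, 0.0417 and 0.0619 with RSG in Pparg+/- cells, and 0.0259, 0.063 and 0.0537 with vehicle and 0.0655, 0.0459 and 0.0614 with RSG in Pparg fl/- cells. The groups were far apart, with no IL-4 array above 0.0785. Limma gave log2 changes of -5.66, -6.47, -5.72 and -5.94, each with an SE of 0.54, and the largest limma adjusted p was 5.7e-07. Cdc20, the activator that the checkpoint holds back, was 24.1-fold lower in the mean of the 4 backgrounds, and Espl1, the separase that cuts cohesin, 3.23-fold. Pttg1 encodes securin, the inhibitor of separase, and was called in none of the 4. In cultures free of IL-4 the Pttg1 ratios of the 3 Pparg+/- mice were 1.2, 1.17 and 1.19 with vehicle and 0.896, 1.28 and 1.03 with RSG, and those of the 3 Pparg fl/- mice were 1.11, 1.19 and 1.19 with vehicle and 0.881, 1.37 and 1.34 with RSG. Cultures given IL-4 had ratios of 0.822, 0.831 and 0.937 with vehicle and 1.05, 0.833 and 0.857 with RSG in Pparg+/- cells, and 0.813, 0.93 and 1.04 with vehicle and 0.83, 0.851 and 0.885 with RSG in Pparg fl/- cells. The Pttg1 groups overlapped with RSG and were apart by little with vehicle. On the log2 scale IL-4 minus control was -0.46, -0.33, -0.22 and -0.46, each with an SE of 0.16, and the largest limma adjusted p was 0.4. Its adjusted p was 0.041 and 0.043 in Pparg+/- cells with vehicle and Pparg fl/- cells with RSG, where the change stayed under 1.5-fold. All 3 probe sets of Pttg1 were small in change, 1.22- to 1.41-fold lower.

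The spindle checkpoint genes, Bub1, Bub1b, Ttk and Mad2l1, were called lower in every background. Bub1, a kinase that gathers checkpoint proteins at kinetochores, changed most. Among cultures without IL-4 the Bub1 ratios of the 3 Pparg+/- mice were 2.77, 4.31 and 3.14 with vehicle and 2.82, 3.9 and 2.6 with RSG, and those of the 3 Pparg fl/- mice were 6.1, 5.09 and 3.23 with vehicle and 6.4, 5.06 and 1.63 with RSG. After IL-4 the same mice gave 0.0613, 0.239 and 0.236 with vehicle and 0.129, 0.155 and 0.182 with RSG in Pparg+/- cells, and 0.169, 0.216 and 0.135 with vehicle and 0.0465, 0.124 and 0.124 with RSG in Pparg fl/- cells. No array with IL-4 was above 0.239. Its log2 changes were -4.47, -4.77, -4.31 and -5.39, each with an SE of 0.56, and the largest limma adjusted p was 1.7e-05. Ttk (MPS1), the kinase at the head of the checkpoint, was 11.7-fold lower in the mean and Bub1b (BUBR1), part of the complex that inhibits CDC20, 8.94-fold. Mad2l1 encodes MAD2, the protein that binds CDC20 at unattached kinetochores, and had the smallest change. In control cultures the Mad2l1 ratios of the 3 Pparg+/- mice were 1.87, 2.79 and 1.91 with vehicle and 1.94, 2.36 and 1.82 with RSG, and those of the 3 Pparg fl/- mice were 3.29, 2.95 and 2.06 with vehicle and 3.43, 3.01 and 1.09 with RSG. With IL-4 they were 0.564, 0.697 and 0.639 with vehicle and 0.554, 0.491 and 0.494 with RSG in Pparg+/- cells, and 0.483, 0.912 and 0.707 with vehicle and 0.787, 0.657 and 0.599 with RSG in Pparg fl/- cells. Its groups did not overlap either, although mouse 6 with RSG, at 1.09, came close to the highest IL-4 array, at 0.912. The log2 changes of Mad2l1 were -1.77, -2.003, -1.99 and -1.73, each with an SE of 0.33, and the largest limma adjusted p was 0.00065.

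All 3 mitotic kinases outside the checkpoint were called lower in every background. Melk, a kinase of dividing cells, changed most. In the absence of IL-4 the Melk ratios of the 3 Pparg+/- mice were 2.69, 4.12 and 3.5 with vehicle and 2.74, 3.54 and 2.77 with RSG, and those of the 3 Pparg fl/- mice were 6.06, 5.1 and 3.53 with vehicle and 6.12, 5.44 and 1.72 with RSG. In the presence of IL-4 the ratios were 0.146, 0.0562 and 0.258 with vehicle and 0.22, 0.157 and 0.221 with RSG in Pparg+/- cells, and 0.258, 0.204 and 0.282 with vehicle and 0.153, 0.209 and 0.149 with RSG in Pparg fl/- cells. Its values with IL-4 reached 0.282 at most. Limma gave log2 changes of -4.72, -4.28, -3.93 and -4.52, each with an SE of 0.47, and the largest limma adjusted p was 6.5e-06. Plk1, which acts at centrosomes, kinetochores and the midzone, was 18.0-fold lower in the mean. Aurka, the Aurora kinase of the spindle poles, had the smallest change of the 3. Without added IL-4 the Aurka ratios of the 3 Pparg+/- mice were 1.87, 2.56 and 1.48 with vehicle and 2.7, 3.43 and 2.71 with RSG, and those of the 3 Pparg fl/- mice were 3.02, 1.45 and 1.13 with vehicle and 3.56, 1.84 and 0.685 with RSG. IL-4 brought values of 0.205, 0.289 and 0.246 with vehicle and 0.38, 0.269 and 0.264 with RSG in Pparg+/- cells, and 0.306, 0.373 and 0.242 with vehicle and 0.385, 0.265 and 0.407 with RSG in Pparg fl/- cells. The array of mouse 6 with RSG, 0.685, was the lowest control and the only one below a ratio of 1. The log2 changes of Aurka were -2.98, -2.50, -3.29 and -2.25, each with an SE of 0.46, and the largest limma adjusted p was 0.0013.

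The chromosomal passenger complex corrects faulty attachments and guides cytokinesis, and all 4 of its genes were called lower in every background. Birc5, survivin, was the most changed of the 51 genes, 90.9-fold lower in the mean, a larger fall than in all but 0.0113% of the 17737 genes. In cultures that had no IL-4 the Birc5 ratios of the 3 Pparg+/- mice were 3.41, 5.16 and 3.51 with vehicle and 3.91, 5.18 and 3.63 with RSG, and those of the 3 Pparg fl/- mice were 6.54, 5.84 and 3.83 with vehicle and 6.26, 6.37 and 1.88 with RSG. Cultures given IL-4 had ratios of 0.124, 0.01 and 0.0869 with vehicle and 0.0568, 0.0122 and 0.0784 with RSG in Pparg+/- cells, and 0.0655, 0.0755 and 0.0559 with vehicle and 0.0769, 0.0873 and 0.0142 with RSG in Pparg fl/- cells. One of these values, 0.01, was at the lowest ratio the files hold, so that this culture gives only an upper limit. The same held for 1 value of 1 probe set each of Bub1 and Kif23, so that the falls of these 3 genes may be understated. On the log2 scale IL-4 minus control was -6.37, -6.34, -6.79 and -6.53, each with an SE of 0.93, and the largest limma adjusted p was 4.7e-05. Aurkb, the kinase of the complex, was 10.8-fold lower and Cdca8, borealin, 7.51-fold. Incenp, the scaffold that joins them, changed least. With no IL-4 the Incenp ratios of the 3 Pparg+/- mice were 1.63, 2.05 and 1.25 with vehicle and 1.82, 1.23 and 1.06 with RSG, and those of the 3 Pparg fl/- mice were 1.32, 1.63 and 1.68 with vehicle and 2.24, 1.82 and 1.21 with RSG. After IL-4 the same mice gave 0.642, 0.582 and 0.523 with vehicle and 0.88, 0.609 and 0.703 with RSG in Pparg+/- cells, and 0.759, 0.716 and 0.707 with vehicle and 0.697, 0.909 and 0.625 with RSG in Pparg fl/- cells. The highest IL-4 value, 0.909, lay below the lowest control, 1.06. Changes in Incenp on the log2 scale were -1.47, -1.08, -0.89 and -1.21, each with an SE of 0.23, and the largest limma adjusted p was 0.011. Of its 5 probe sets, 4 were 2.28- to 3.09-fold lower and 1 had a mean log2 change of 0.05, the only probe set of these genes beside that of Kif15 above 0.

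**Figure D2:**
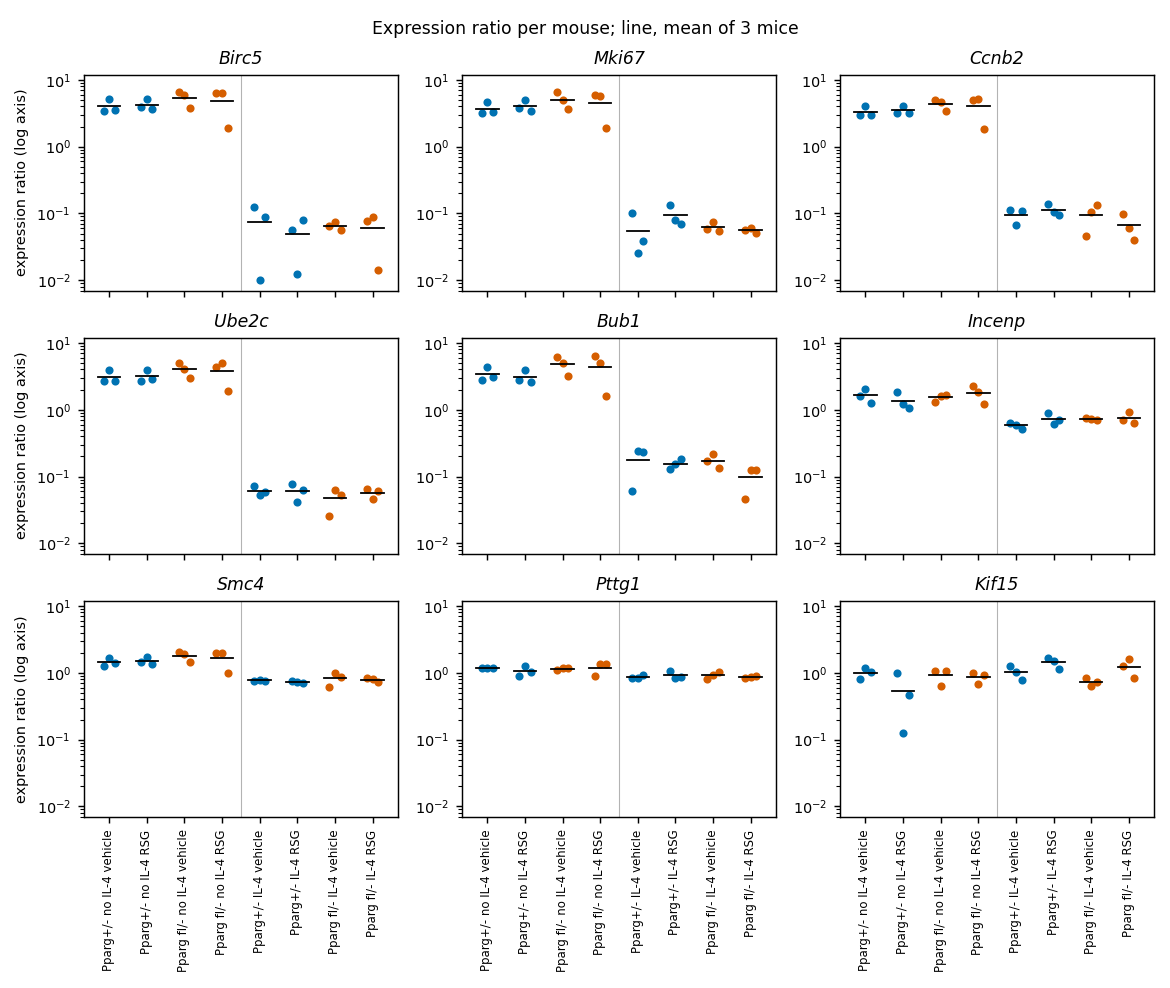
Expression ratio (vertical axis, log scale) of 9 genes in the 8 groups (horizontal axis), 1 point per mouse, blue for Pparg+/- and orange for Pparg fl/-, the line being the mean of the 3. Birc5, Mki67, Ccnb2, Ube2c and Bub1 were lower with IL-4 by 19.9- to 111-fold, Incenp and Smc4 by 1.84- to 2.77-fold, and the groups of Pttg1 (with RSG) and of Kif15 (in all but Pparg+/- cells with RSG) overlapped.

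Of the 9 mitotic kinesins, the motors of the spindle, 8 were called lower in every background. Kif23, the motor of centralspindlin in the midzone, changed most. Without the cytokine the Kif23 ratios of the 3 Pparg+/- mice were 2.11, 2.82 and 2.78 with vehicle and 2.78, 3.04 and 2.65 with RSG, and those of the 3 Pparg fl/- mice were 4.22, 2.2 and 2.48 with vehicle and 3.54, 3.6 and 1.46 with RSG. With IL-4 they were 0.355, 0.0455 and 0.0872 with vehicle and 0.21, 0.0371 and 0.149 with RSG in Pparg+/- cells, and 0.0913, 0.0586 and 0.0907 with vehicle and 0.0659, 0.148 and 0.0703 with RSG in Pparg fl/- cells. The IL-4 values were spread, from 0.0371 to 0.355, and all lay below the controls. Its log2 changes were -4.51, -5.18, -4.74 and -4.91, each with an SE of 0.74, and the largest limma adjusted p was 0.00017. The other called motors were Kif20a, which carries the passenger complex to the midzone (16.1-fold lower in the mean), Kifc1, which crosslinks and focuses spindle poles (13.5-fold), the chromokinesins Kif4 (9.27-fold) and Kif22 (5.64-fold), Kif11, which pushes the poles apart (8.83-fold), and Kif2c and Kif18b, which act on microtubule ends (5.52- and 5.39-fold). The calls of Kif18b in Pparg+/- cells were lost without any 1 of the 3 mice, with log2 changes of -2.28 to -1.78 and limma adjusted p of 0.053 to 0.13.

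Kif15, a motor that can stand in for Kif11 in keeping the spindle bipolar, was the exception. It was read by 1 probe set, whose position in the gene is not given in the sources used here. On its single probe set, without IL-4, the Kif15 ratios of the 3 Pparg+/- mice were 0.807, 1.17 and 1.02 with vehicle and 0.996, 0.126 and 0.471 with RSG, and those of the 3 Pparg fl/- mice were 1.06, 0.625 and 1.08 with vehicle and 1, 0.67 and 0.93 with RSG. In the presence of IL-4 the ratios were 1.26, 1.03 and 0.792 with vehicle and 1.66, 1.51 and 1.14 with RSG in Pparg+/- cells, and 0.842, 0.631 and 0.73 with vehicle and 1.27, 1.6 and 0.823 with RSG in Pparg fl/- cells. The groups overlapped except in Pparg+/- cells with RSG, where the control of mouse 2 was low at 0.126. Limma gave log2 changes of 0.03, -0.29, 1.87 and 0.47, each with an SE of 0.49, and the largest limma adjusted p was 0.98. Kif15 was called higher in that one background, with an adjusted p of 0.0099 in limma, against 7.05% of all genes called higher there. No member was called higher in Pparg+/- and Pparg fl/- cells with vehicle or in Pparg fl/- cells with RSG, against 8.29%, 8.81% and 7.97% of all genes. Without mouse 2 its change there was 1.01 with an adjusted p of 0.14, and by the methods' t-test its adjusted p was 0.27.

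At the centromere and kinetochore all 9 genes were called lower in every background. Nuf2, a subunit of the NDC80 complex that grips microtubules, changed most. In controls the Nuf2 ratios of the 3 Pparg+/- mice were 3.41, 4.93 and 3.62 with vehicle and 3.52, 4.08 and 3.09 with RSG, and those of the 3 Pparg fl/- mice were 6.59, 5.81 and 3.54 with vehicle and 5.47, 5.18 and 1.81 with RSG. IL-4 brought values of 0.109, 0.061 and 0.105 with vehicle and 0.145, 0.136 and 0.133 with RSG in Pparg+/- cells, and 0.169, 0.109 and 0.168 with vehicle and 0.175, 0.189 and 0.184 with RSG in Pparg fl/- cells. No IL-4 array was above 0.189. On the log2 scale IL-4 minus control was -5.47, -5.14, -4.68 and -4.35, each with an SE of 0.38, and the largest limma adjusted p was 1.7e-07. The other subunits of that complex were 20.3-fold (Ndc80), 14.9-fold (Spc24) and 4.87-fold (Spc25) lower in the mean. Cenpe, the kinesin that moves chromosomes to the spindle equator, was 26.9-fold lower, Cenpf 15.0-fold, and the inner kinetochore genes Cenph and Cenpk 10.9- and 4.93-fold. Cenpa, the histone variant that marks the centromere also in resting cells, had the smallest change. In control cells the Cenpa ratios of the 3 Pparg+/- mice were 1.28, 1.55 and 1.66 with vehicle and 1.48, 1.25 and 1.39 with RSG, and those of the 3 Pparg fl/- mice were 1.43, 1.6 and 1.57 with vehicle and 1.47, 1.42 and 1.59 with RSG. Cultures given IL-4 had ratios of 0.544, 0.377 and 0.48 with vehicle and 0.707, 0.55 and 0.471 with RSG in Pparg+/- cells, and 0.476, 0.414 and 0.631 with vehicle and 0.54, 0.547 and 0.706 with RSG in Pparg fl/- cells. Cenpa was 1 of the 3 genes, with Pttg1 and Kif15, in which mouse 6 was not the lowest control of its group with RSG. The log2 changes of Cenpa were -1.69, -1.62, -1.27 and -1.33, each with an SE of 0.19, and the largest limma adjusted p was 8.4e-05.

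Spindle assembly and cytokinesis were covered by 8 genes, all called lower in every background. Prc1, which bundles microtubules of the midzone, changed most. In unstimulated cultures the Prc1 ratios of the 3 Pparg+/- mice were 2.73, 4.11 and 2.75 with vehicle and 2.98, 4.1 and 2.72 with RSG, and those of the 3 Pparg fl/- mice were 5.61, 4.68 and 3.49 with vehicle and 5.87, 5.89 and 1.77 with RSG. After IL-4 the same mice gave 0.22, 0.15 and 0.151 with vehicle and 0.212, 0.201 and 0.167 with RSG in Pparg+/- cells, and 0.172, 0.0808 and 0.0692 with vehicle and 0.157, 0.128 and 0.0831 with RSG in Pparg fl/- cells. IL-4 values ran from 0.0692 to 0.22 and controls from 1.77 to 5.89. Its log2 changes were -4.20, -5.51, -4.07 and -5.05, each with an SE of 0.45, and the largest limma adjusted p was 2.8e-06. Racgap1 and Ect2, which switch on RhoA at the cleavage site, were 22.2- and 13.5-fold lower in the mean, and Anln, which scaffolds the contractile ring, 9.40-fold. The microtubule-binding genes Hmmr, Nusap1 and Dlgap5 were 14.5-, 9.71- and 8.66-fold lower. Tpx2, which activates Aurora A and seeds microtubules near chromosomes, changed least. When no IL-4 was given the Tpx2 ratios of the 3 Pparg+/- mice were 1.44, 2.33 and 1.7 with vehicle and 1.61, 1.81 and 1.61 with RSG, and those of the 3 Pparg fl/- mice were 2.51, 2.41 and 1.59 with vehicle and 2.29, 2.26 and 1.11 with RSG. With IL-4 they were 0.539, 0.665 and 0.769 with vehicle and 0.556, 0.572 and 0.781 with RSG in Pparg+/- cells, and 0.777, 0.621 and 0.648 with vehicle and 0.64, 0.64 and 0.777 with RSG in Pparg fl/- cells. The highest IL-4 value, 0.781, was below the lowest control, 1.11. Tpx2 had log2 changes of -1.46, -1.65, -1.41 and -1.39, each with an SE of 0.25, and the largest limma adjusted p was 0.00044.

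All 7 genes of chromosome structure were called lower in every background. Mki67 encodes Ki-67, the coat of mitotic chromosomes that is used as a proliferation marker, and was the gene with the second largest change. In cells without IL-4 the Mki67 ratios of the 3 Pparg+/- mice were 3.15, 4.67 and 3.26 with vehicle and 3.83, 5.04 and 3.39 with RSG, and those of the 3 Pparg fl/- mice were 6.48, 4.96 and 3.61 with vehicle and 5.89, 5.71 and 1.87 with RSG. In the presence of IL-4 the ratios were 0.101, 0.0254 and 0.0393 with vehicle and 0.134, 0.081 and 0.0705 with RSG in Pparg+/- cells, and 0.0592, 0.0735 and 0.0548 with vehicle and 0.0559, 0.0614 and 0.0505 with RSG in Pparg fl/- cells. The highest value with IL-4 was 0.134 and the lowest without it 1.87. Limma gave log2 changes of -6.28, -6.30, -5.46 and -6.16, each with an SE of 0.59, and the largest limma adjusted p was 2.1e-06. Top2a, the topoisomerase that untangles sister chromatids, was 11.3-fold lower in the mean. Of the condensin genes, the 3 non-SMC subunits Ncapg, Ncaph and Ncapd2 were 16.8-, 10.2- and 7.09-fold lower, and the ATPase Smc2 5.86-fold. Its partner Smc4 had the smallest change. Without IL-4 the Smc4 ratios of the 3 Pparg+/- mice were 1.26, 1.65 and 1.39 with vehicle and 1.43, 1.72 and 1.34 with RSG, and those of the 3 Pparg fl/- mice were 2.03, 1.89 and 1.43 with vehicle and 2.01, 1.97 and 1.01 with RSG. IL-4 brought values of 0.765, 0.793 and 0.763 with vehicle and 0.759, 0.717 and 0.71 with RSG in Pparg+/- cells, and 0.62, 0.984 and 0.875 with vehicle and 0.823, 0.8 and 0.726 with RSG in Pparg fl/- cells. Mouse 6 with RSG, at 1.01, was only just above the highest IL-4 value of 0.984. Smc4 had log2 changes of -0.88, -1.12, -1.03 and -1.02, each with an SE of 0.22, and the largest limma adjusted p was 0.0059. Smc2 and Smc4 are shared by both condensin complexes, whereas Ncapg, Ncaph and Ncapd2 belong to condensin I.

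**Figure D3:**
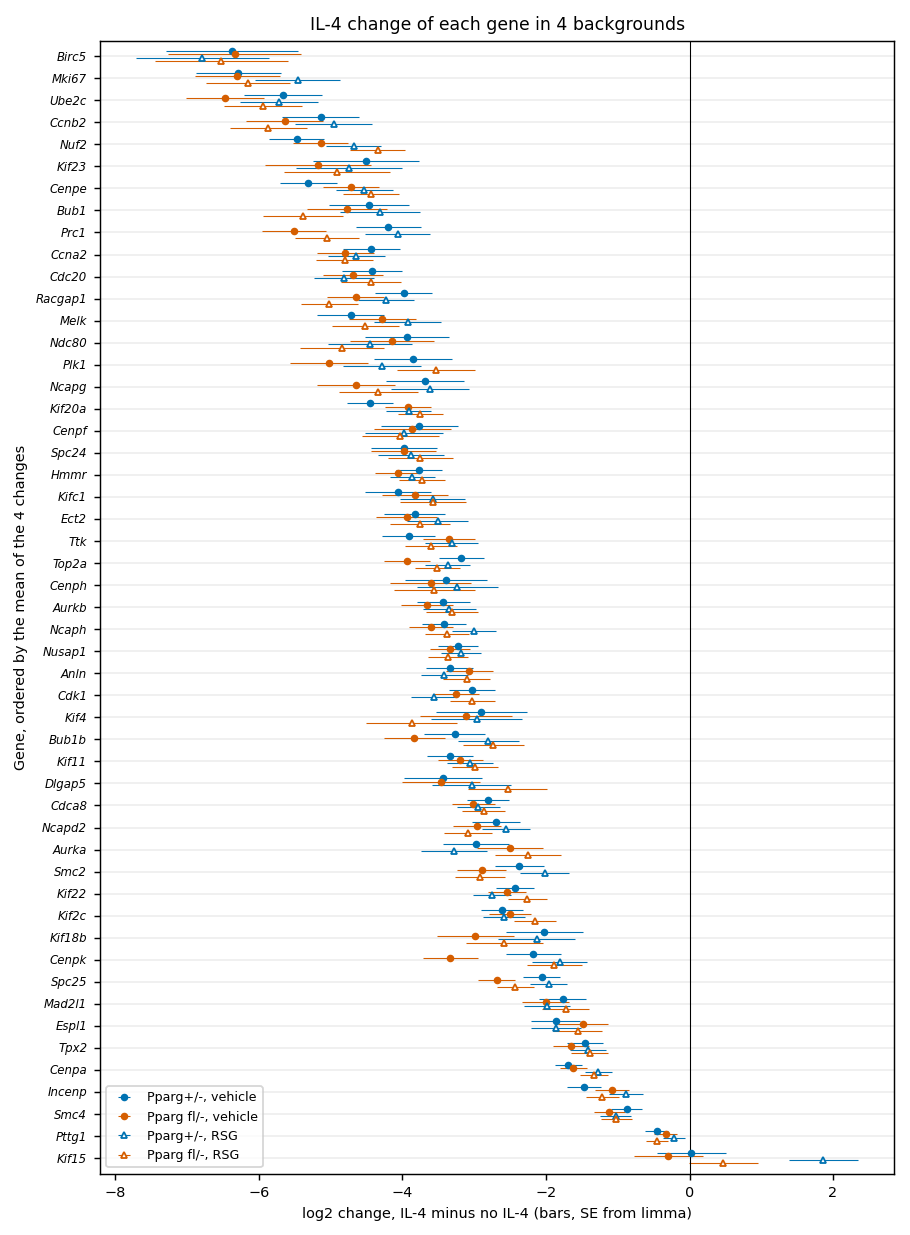
The log2 change with IL-4 (horizontal axis, bars the SE from limma) of each of the 51 genes (vertical axis, ordered by the mean of the 4 changes) in Pparg+/- (blue) and Pparg fl/- (orange) cells with vehicle (filled circles) or RSG (open triangles). Changes ran from Birc5, 90.9-fold lower in the mean, to Smc4, 2.02-fold lower, with Pttg1 at 1.29-fold lower and Kif15 on both sides of 0.

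The size of the change rested partly on which probe sets a gene had. Of the 51 genes, 32 had more than 1 probe set, and in 1 of these, Incenp, the probe sets differed in sign. The mean log2 change of single probe sets ran from -6.91 to -2.05 within Kif23, from -5.79 to -0.11 within Bub1b, from -5.36 to -0.76 within Kif2c and from -3.94 to -0.63 within Spc25. The order of genes by change, which is an order of means over probe sets, is therefore a description. Neighbours in it are closer than their errors, as with Bub1 and Prc1 at mean changes of -4.74 and -4.71. When the probe set with the smallest spread stood for each gene, Spc25 was called in 1 of the 4 backgrounds and Kif2c in 2.

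Other genes of the same process, from lists by function, were mostly lower too. These lists, like those of other machinery and of markers below, were chosen with earlier results of these data known. Of 47 other periodic mitotic genes, 43 were called lower in all 4 backgrounds, with a median mean log2 change of -2.93, against 4.27% of all genes. Sgo1, which guards cohesin at centromeres, was 40.5-fold lower in the mean, the kinase gene Pbk 38.6-fold, Shcbp1 34.5-fold, Depdc1a 31.7-fold and the CDK1-activating phosphatase gene Cdc25c 30.1-fold. Kif14, Pkmyt1 and Gas2l3 were called in none of the 4 and Psrc1 in 1. Of 26 other kinetochore genes, 15 were called lower in all 4, led by Cenpi (35.4-fold), Kntc1 (24.5-fold), Knl1 (14.3-fold), Cenpp (11.6-fold) and Zwilch (8.76-fold). Of the rest of that list, 8 were called in none: Bub3, Mad1l1, Cenpb, Zw10, Mis12, Zwint, Cenpo and Cenpc1, whose mean log2 changes were between -0.36 and -0.01. Bub3 and Mad1l1 encode partners of the checkpoint proteins BUB1 and MAD2, whose own genes were called.

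Lists of machinery with work outside mitosis held 0 or 1 gene each that was called in all 4 backgrounds, where 4.27% of all genes were called lower in all 4. Of 15 genes of the anaphase-promoting complex, 1 was called lower in all 4 backgrounds, Anapc5, which was 1.64-fold lower, and the list's median was -0.20. Of 10 genes of cohesin and its loaders none was called in all 4, with a median of -0.03, and Rad21 was called lower in 3. Of 18 transport kinesin genes, 1 was called in all 4, Kif3a, which was 2.09-fold lower, and the median was 0.0045. Of 14 tubulin and centrosome genes 1 was called in all 4, Tuba4a, 3.52-fold lower, and the median was -0.37. Tuba1a and Cep192 were called lower in 2 each, Ckap5 lower in 1 and Tubb6 higher in 1. The condensin II subunit gene Ncapg2 was called in all 4 and was 8.59-fold lower, Ncaph2 was called in 3 and Ncapd3 in 1, with a median of -0.98. None of 12 genes of the DREAM and related complexes, some of which bind the cell cycle homology motif, was called in all 4, and their median was -0.08, with Lin9 called lower in 3 backgrounds, Lin54 in 2, Tfdp1 and Mybl1 in 1 each, and E2f5 called higher in 1.

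Marker genes of other cell types were also lower or higher with IL-4. Of 8 neutrophil markers, 6 were called lower in all 4 backgrounds, against 4.27% of all genes. Cxcr2 was called lower in 2 and Mmp8 in 1, and Mmp8 was above 0 in its other backgrounds. The sum of the 8 ratios, in which each gene is scaled to its own median and which is therefore no amount of RNA, was 13 to 30.7 on the arrays without IL-4 and 1.2 to 2.99 on those with it, and S100a9 was between 1.98 and 5.33 without IL-4 and between 0.01 and 0.0229 with it. Of 10 stromal cell markers, 6 were called lower in all 4, Pdgfrb and Cxcl12 in 3, Dcn in 1 and Lum in none. The summed ratio of the 10 was 12.2 to 59.8 without IL-4 and 3.3 to 6.44 with it. Of 10 markers of haematopoietic progenitors, Cd34 was called lower in all 4, at 8.50-fold, Prtn3 lower in 3 and Kit, Mpo and Myb in 2 each, while Gata2 was called higher in 3, at 2.76-fold, and Flt3 in 1. The summed ratio was 10.6 to 22.1 without and 5.81 to 11.5 with IL-4. The part of these cells in the fall of the mitotic genes was not tested.

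The remaining markers were less uniform. Of 11 macrophage markers, Aif1, Fcgr1 and Cd14 were called lower in all 4, Cx3cr1 lower in 3 and Mertk in 2, Itgam higher in 3, and Csf1r, Adgre1, Cd68, Mrc1 and Lyz2 in none. The summed ratio of the macrophage markers, 12.7 to 35.2 without and 8.28 to 29.6 with IL-4, was set at its upper end by Lyz2 in mice 2 and 4. Of 8 dendritic cell markers 3 were called higher in all 4, Batf3, Itgax and Zbtb46, at 6.57-, 6.03- and 3.64-fold, against 4.43% of all genes. Flt3 was called higher in 1 and Siglech lower in 1, and Cd209a, Xcr1 and Ccr7 in none. The summed ratio of the 8 was 4.25 to 9.07 without and 8.88 to 16.9 with IL-4. Of 7 B cell markers none was called in all 4, Cd79b was called lower in 3, at 16.6-fold, Ebf1 lower in 1 and Vpreb1 higher in 1, with a summed ratio of 6.19 to 11.3 without and 3.04 to 8.97 with IL-4. Of 7 T and NK cell markers Gzma was called higher in all 4, from ratios of 0.0483 to 0.642 without IL-4 to 1.36 to 6.54 with it. Cd8a was called higher in 1 and Cd4 lower in 1. None of 9 mast cell and basophil, 4 eosinophil and 3 erythroid markers was called in all 4. Among the mast cell and basophil markers Cpa3 and Gata2 were called higher in 3, at 3.69- and 2.76-fold, and Kit lower in 2. Prg2 and Siglecf of the eosinophil markers were called lower in 2 each, and Klf1 of the erythroid markers higher in 1.

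None of the 51 genes passed the test with RSG in either genotype, with or without IL-4. The share of all genes called was 0.0226% in Pparg+/- cells without IL-4, 0.372% in Pparg+/- cells with IL-4, 0% in Pparg fl/- cells without IL-4 and 0.00564% in Pparg fl/- cells with IL-4, so that few calls were made anywhere. The smallest adjusted p among the 51 was 0.74, 0.67, 1 and 0.79 in that order, and 1, 0, 0 and 2 genes had an unadjusted p under 0.05. Among all genes 5.46%, 7.74%, 4.1% and 4.71% had such an unadjusted p in limma. The median log2 difference, RSG minus vehicle, was 0.03 in Pparg+/- cells without IL-4, where 29 genes were above 0, and 0.11 with IL-4, where 32 were. In Pparg fl/- cells it was -0.28 without IL-4, with 48 of 51 genes below 0 against 46.9% of all genes, and -0.02 with IL-4. Taking out the array of mouse 6 with RSG turned the median without IL-4 to 0.21, with 46 genes above 0. The vehicle array of mouse 6, lowest of its group with a mean log2 ratio of 1.35, stayed in that fit, so that the mice compared were not matched. Mouse by mouse, the mean difference over the 51 genes without IL-4 was -0.04, 0.09 and -0.822 in mice 4, 5 and 6. The median SE of a gene was 0.393 log2 units, and a p above the threshold does not show that RSG left a gene as it was.

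The 2 genes with the largest differences with RSG in Pparg fl/- cells with IL-4 are given on every array. Cenpk, in Pparg fl/- cells with IL-4, had ratios of 0.221, 0.342 and 0.193 with vehicle and 0.569, 0.502 and 0.782 with RSG, which did not overlap, a log2 difference of 1.31 ± 0.38 (SE) with a limma adjusted p of 0.79. Plk1 in the same cells went from 0.226, 0.242 and 0.0381 to 0.252, 0.253 and 0.392, the lowest being mouse 6 with vehicle, a difference of 1.19 ± 0.54 with an adjusted p of 1 in limma. Groups with and without RSG did not overlap in 9 genes in Pparg+/- cells with IL-4, 5 lower and 4 higher, against 8.54% and 6.32% of all genes. In the other RSG comparisons they were apart in at most 4 genes, against 3.47% to 6.24% of all genes in each direction.

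The genotype gave no called gene among the 51 either. Called shares of all genes were 0% without IL-4 and with vehicle, 0.0113% without IL-4 and with RSG, 0% with IL-4 and vehicle and 0.575% with IL-4 and RSG. Without IL-4 and with vehicle, 47 of 51 genes were above 0 in Pparg fl/- minus Pparg+/- and 4 below, against 39.2% of all genes below 0. The median log2 difference of the 51 genes was 0.37, where the median of all genes was 0.0823. It was 0.31 after the arrays were centred on their medians and 0.11 after quantile normalization. In the same comparison the median of the stromal cell markers was 1.48, with none called and summed ratios of 15 to 18.6 in Pparg+/- and 24 to 59.8 in Pparg fl/- cells, and its part in the difference of the mitotic genes was not tested. The smallest adjusted p was 0.63, and the 3 arrays of each genotype overlapped in all but 1 gene, against 14.2% of all genes apart in that direction. With RSG and no IL-4 the median was 0.09, and -0.0021 and -0.07 after centring and quantile normalization, and without the array of mouse 6 it was 0.57, with 49 genes above 0. With every array kept, 34.2% of all genes were below 0 there, and the share without that array is not given here. With IL-4 the medians were 0.18 with vehicle and 0.02 with RSG, the second of which was -0.06 after centring and -0.0057 after quantile normalization.

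Single genes with larger genotype differences did not pass the test. Kif15 without IL-4 and with RSG, where the control of mouse 2 was low, differed by 1.13 ± 0.49 (SE) on the log2 scale, with a limma adjusted p of 0.51. Ttk in IL-4-treated cells with vehicle had ratios of 0.148, 0.117 and 0.244 in Pparg+/- and 0.281, 0.387 and 0.312 in Pparg fl/- cells, a log2 difference of 1.00 ± 0.37 (SE) with a limma adjusted p of 0.49. Kif20a had ratios of 0.105, 0.145 and 0.151 and 0.203, 0.301 and 0.276 in the same cells, a difference of 0.96 ± 0.32 with an adjusted p of 0.43 in limma. In both genes the 3 arrays of each genotype did not overlap there, and with RSG they did in Ttk and did not in Kif20a. In these cells the genotypes were apart in 7 genes higher and 1 lower, against 6.87% and 3.03% of all genes.

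The fall with IL-4 was compared between genotypes and between vehicle and RSG. None of the 51 genes was called in any of the 4 tests of a difference between IL-4 responses, nor in the 2 of a difference between RSG responses, where 0% to 0.0113% of all genes were. The median difference of the IL-4 response, Pparg fl/- minus Pparg+/-, was -0.21 with vehicle and -0.07 with RSG. The difference of the IL-4 response, RSG minus vehicle, had a median of 0.08 in Pparg+/- cells and of 0.23 in Pparg fl/- cells. Without the array of mouse 6 the second and the fourth of these medians were -0.54 and -0.30. After quantile normalization the first 2 were 0.02 and 0.05, so that their direction turned. In the fit without that array the other arrays of mouse 6 stayed in, so that mice were not matched. Mouse by mouse, the mean IL-4 change over the 51 genes was -3.93 and -3.54 with vehicle in mice 4 and 5. With RSG it was -3.84 and -3.70 in the same mice. The difference of the RSG response, Pparg fl/- minus Pparg+/-, had medians of -0.26 without and -0.18 with IL-4. Without the array of mouse 6 the first was 0.19, with 43 genes above 0, and there too the vehicle array of mouse 6 stayed in. The median SE was 0.556 here, and a p above the threshold does not show that the responses were alike. Over all 14 comparisons other than IL-4 against control, 13 values in 8 genes had an unadjusted limma p under 0.05, and Kif15 and Cenpk had 3 each. Of all genes, 3.88% to 11.3% had such a p in each of these comparisons. These comparisons share arrays with each other and with those of IL-4.

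**Figure D4:**
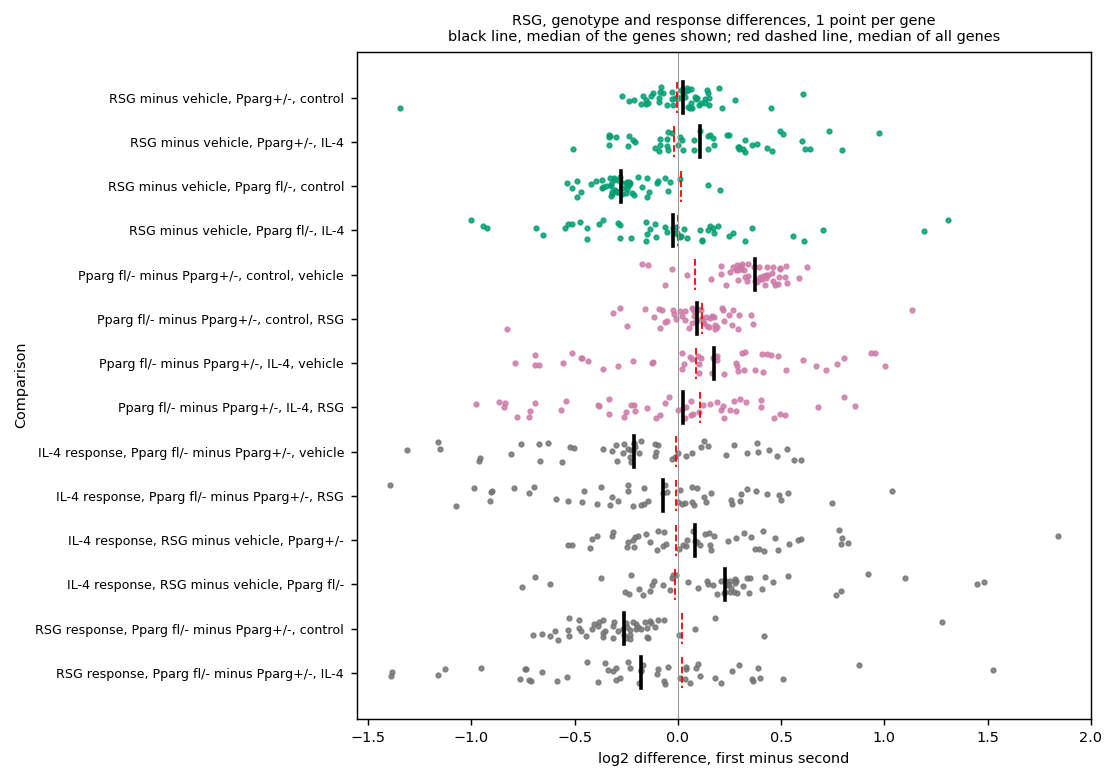
Log2 difference (horizontal axis) of each of the 51 genes, 1 point per gene, in the 14 RSG, genotype and response comparisons (vertical axis), with the median of the 51 genes as a black line and that of all genes as a red dashed line. The medians of the 51 genes lay between -0.28 and 0.37 and no gene was called.

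The mean over these genes differed more between mice without IL-4 than with it. The mean log2 ratio over the 51 genes ran from 0.528 to 1.97 on the arrays without IL-4 and from -2.21 to -1.72 on those with it. Without IL-4, mouse 2 was the highest of the 3 Pparg+/- mice in 48 of 51 genes with vehicle and in 46 with RSG, and mouse 4 the highest of the 3 Pparg fl/- mice in 45 and 32. These are the mice in which Lyz2 was high, and its part in this order was not tested. With IL-4 no mouse was the highest in more than 29 genes of its group. The mean log2 change per mouse, IL-4 minus control, was -3.10, -3.89, -3.14, -3.93, -3.54 and -3.25 in mice 1 to 6 with vehicle, and -3.06, -3.56, -3.08, -3.84, -3.70 and -2.60 with RSG.

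The array of mouse 6 without IL-4 and with RSG had the smallest mean of the controls, 0.528, against 1.93 and 1.85 in mice 4 and 5. It was the lowest of its group in 48 of 51 genes, where 36.2% of all genes were lowest, and lay 2.71-fold below the mean of the other arrays in the median gene. The SD between the mice of this group was 0.853 in the median gene of the 51 and 0.326 in the median of all genes, where in the other 7 groups the former was 0.258 to 0.367. Stromal markers were also low on it, with 9 of 10 lowest of the group and a median of -1.29 log2 units, as were progenitor markers, with 6 of 10 and -0.75, and neutrophil markers, with 6 of 8 and -0.30. Macrophage markers were higher there, by 0.31, T and NK cell markers by 0.89, with 5 of 7 highest of the group, and eosinophil markers by 0.32. B cell markers were lower, with 5 of 7 lowest of the group and a median of -0.42. Erythroid, dendritic cell, and mast cell and basophil markers had medians of -0.15, -0.19 and -0.02. The part of other cells in this array was not tested. Without it 49 genes were again called lower with IL-4 in Pparg fl/- cells with RSG.

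**Figure D5:**
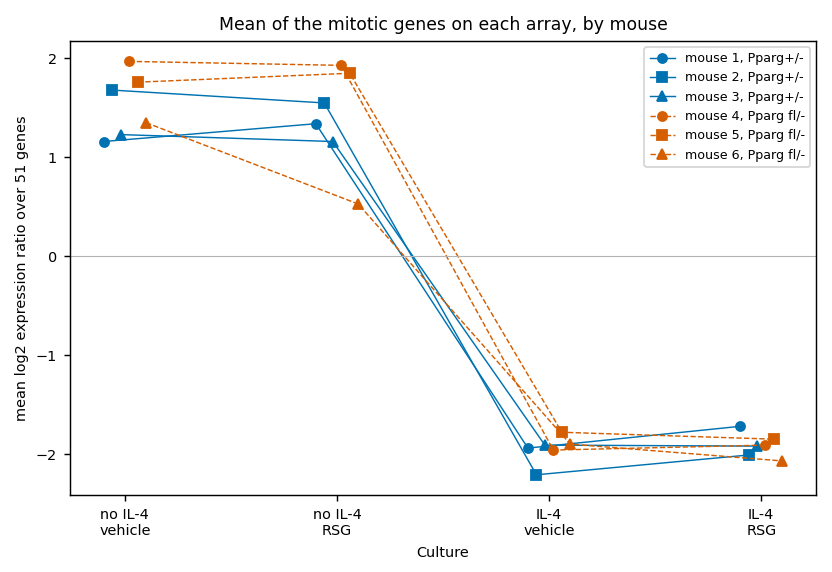
Mean log2 expression ratio over the 51 genes (vertical axis) on each array, with lines joining the 4 cultures (horizontal axis) of a mouse, blue for Pparg+/- and orange for Pparg fl/-. Arrays without IL-4 lie between 0.528 and 1.97, the lowest being mouse 6 with RSG, and arrays with IL-4 between -2.21 and -1.72.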

How the data were processed

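RNA of 24 cultures, 4 from each of 6 mice, was hybridised to Affymetrix whole-genome mouse arrays. The authors processed the scans with GCOS and GC-RMA, divided each array by its median and each probe set by its median over the experiment, and deposited a linear ratio per probe set. Of the deposited probe sets, 82.2% had a median ratio within 0.005 of 1. The methods also name a division by the vehicle control, which the values do not show. The depth of an array is not a count, and precision is limited by 3 arrays a group.

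From the deposited ratios, 64 control probe sets were left out, and 1688 more that reached the median of the array on fewer than 3 arrays. Since each probe set was scaled to its own median, this filter does not measure low expression. Ratios were taken to log2 with no pseudocount (lowest ratio 0.01) and averaged over the probe sets of a gene that carried its symbol alone. Names came from the platform annotation (34945 probe sets with 1 symbol, 932 with several), brought up to date by gene identifier for 34741. No further scaling was applied, and array medians were 0.906 to 1.08. A model of the 8 groups was fitted over all 17737 genes in limma 3.58.1 (R 4.3.3) with a trend of the variance on the mean log2 ratio. P-values were adjusted by Benjamini and Hochberg over all genes in each of 18 comparisons. A call needed an adjusted p under 0.05 and a 1.5-fold change. The fit was tested on simulated data. Two-sided tests were used throughout.

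Mouse numbers in the labels pair the cultures, since each mouse gave 4. Deviations from the group means correlated between arrays of the same mouse at r = -0.05 to 0.0525, so that the block was an alternative. In the 51 genes without IL-4, however, the same mouse of a genotype was mostly the highest with vehicle and with RSG, as given above. Both differences of RSG responses were added after values were seen. In each of 9 roles the genes with the largest and smallest mean change with IL-4 are given on every array. Members and lists were chosen with earlier results of these data known. Promoters were read from a RefSeq table for GRCm38.p6, and motifs were counted in Python 3.11.15. Alternatives were another summary over probe sets, array scaling, a higher floor, no filter, the methods' t-test, the block, a 2-fold threshold and leaving out mice or arrays.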

Additional observations from a re-analysis of the deposited data

How the results depend on the processing

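Of the 51 genes, 49, 49, 50 and 49 were called with IL-4 in Pparg+/- and Pparg fl/- cells with vehicle and Pparg+/- and Pparg fl/- cells with RSG, the 50 counting Kif15, which was higher. Of all genes, limma called 15.1%, 16.8%, 13.4% and 15.2% in either direction, and the shares under the alternatives are not given here. With each mouse as a fixed or a random replicate block, the counts were again 49, 49, 50 and 49. By the methods' t-test, which has fewer arrays behind each spread, they were 46, 41, 48 and 28. Over all alternatives the counts ran from 28 to 50, and leaving out 1 mouse gave 46 to 50. Of single calls, 57 were lost over all alternatives, 34 of them by the methods' t-test. Beside Kif15, whose call was lost without mouse 2, 6 genes lost a call when 1 mouse was left out, all keeping their direction. Kif18b lost its calls in Pparg+/- cells without any of mice 1, 2 and 3 (log2 changes of -2.28 to -1.78, limma adjusted p of 0.053 to 0.13). Smc4 lost them without mouse 2 with vehicle and with RSG, and without mouse 3 with vehicle (-0.92 to -0.79, 0.052 to 0.087), and Incenp with RSG without mouse 1 or 2 (-0.82 to -0.81, 0.071 to 0.09). Cenpk with RSG lost its call without mouse 1 (-1.59, 0.051), Kif4 with vehicle without mouse 2 (-2.46, 0.075) and Espl1 in Pparg fl/- cells without mouse 5 (-1.25 and -1.17, 0.068 and 0.092). Pttg1 in Pparg fl/- cells with RSG gained a call without mouse 4, at -0.64 and an adjusted p of 0.0074. The Kif15 change in Pparg+/- cells with vehicle, 0.03, turned to -0.06321 with array medians centred, -0.05489 after quantile normalization and ran from -0.2801 to 0.2244 when 1 mouse was left out, and the cause was not tested. The median change in Pparg fl/- cells with RSG was -4.06 without mouse 6. In the 14 comparisons of RSG, genotype and responses no gene of the 51 was called by limma under any alternative. Nor was any by the methods' t-test in the 8 of them between 2 groups. They held 13 values at an unadjusted p under 0.05 in limma, against 3.88% to 11.3% of all genes in each comparison.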
